A study of Mus musculus with 594 samples.

Results

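The experiment described here is the exposure of 2 mouse islet cell lines to the anilide histone deacetylase inhibitor CI-994, measured on expression arrays against the vehicle dimethyl sulfoxide (DMSO). Arrays were chosen by the compound named in their titles: 17 of the 594 arrays of the series carried CI-994 at 10 µM, and 76 carried DMSO in the same lines at the same times. The lines were alpha-TC1 (αTC1), a glucagon-producing line, and beta-TC3 (βTC3), an insulin-producing line, both grown from islet tumours of mice in which the SV40 large T antigen is driven by the glucagon or the insulin promoter. They therefore model dividing tumour cells that carry an oncogene, in treated and control wells alike. Cells of both lines were kept in low-glucose medium with serum and were plated 24 h before compound was added. RNA was taken after 1, 6 or 24 h. Each CI-994 group held 3 arrays, except αTC1 at 24 h, which held 2 (replicates 1 and 2). The DMSO groups held 14 arrays at each time in αTC1 and 12, 10 and 12 arrays at 1, 6 and 24 h in βTC3.

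Histone deacetylases remove acetyl groups from lysines of histones and other proteins, and the class I enzymes HDAC1, HDAC2 and HDAC3 do so as the catalytic subunits of co-repressor complexes such as Sin3, NuRD, CoREST and NCoR/SMRT. CI-994 (tacedinaline) is an ortho-amino anilide, a group that chelates the active-site zinc and is selective for class I enzymes, whereas hydroxamic acids such as pyroxamide and ITF-2357 (givinostat) act on a broader set. Inhibition of these enzymes is known to raise cyclin-dependent kinase inhibitors and to arrest the cell cycle in many tumour lines. The 24 h arrays of pyroxamide and ITF-2357, each at 10 µM (n = 3 per line), and the arrays of the anilides MS-275 (entinostat) at 2.9 µM and MGCD-0103 (mocetinostat) at 1.1 µM (18 arrays each) are set beside CI-994 at the end.

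Values are log2 of the deposited array intensities, so that a difference of 1 is a 2-fold change, and a level is comparable between arrays for 1 gene but not between genes. A gene was called when its adjusted p was under 0.05 in a linear model with batch as a term (limma, Benjamini-Hochberg over 11807 genes). All 17 CI-994 arrays lay in batches 4 to 6 of the 7 batches, and DMSO arrays were present in each batch. Pairs of arrays within a group correlated between 0.981 and 0.997 across genes. The labels do not say that replicates came from separate cultures, so the p-values measure the spread between these arrays, and their small number limits the precision. The lines matched their labels at 24 h in DMSO: glucagon (Gcg) read 11.9 to 12.74 in αTC1, where insulin 2 (Ins2) read 3.37 to 5.78, and Ins2 read 13.02 to 13.36 in βTC3. βTC3 also gave a high signal for somatostatin (Sst, 12.42 to 12.86) and neuropeptide Y (Npy, 12.79 to 13.15), and a Gcg signal that varied from 6.18 to 10.43 between DMSO arrays.

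Almost nothing differed from DMSO after 1 h, and a large part of the genes did after 6 and 24 h. No gene was called in αTC1 at 1 h (0% in each direction; 286 genes had an unadjusted p under 0.05), and 3 genes were higher and 0 lower in βTC3 (0.0254% and 0%; 614 unadjusted). At 6 h 1340 genes were higher and 1382 lower in αTC1 (11.3% and 11.7%), and 1248 were higher and 1664 lower in βTC3 (10.6% and 14.1%). At 24 h 1793 were higher and 1914 lower in αTC1 (15.2% and 16.2%), and 2046 were higher and 1941 lower in βTC3 (17.3% and 16.4%). Rises outnumbered falls among changes of at least 2-fold. At 6 h 215 genes were raised and 45 lowered by that much in αTC1, and 142 and 64 in βTC3. At 24 h the numbers were 622 and 402 for αTC1 and 429 and 221 for βTC3. The split between higher and lower depended on centring. With each array centred on its own median, 1465 genes were higher and 2459 lower in αTC1 at 24 h, and 1649 were higher and 1348 lower in βTC3 at 6 h. Leaving out replicate 2 of αTC1 at 24 h, so that 1 array remained, left 2390 called genes in place of 3707. Within batches, 3700 of the 3707 genes called in αTC1 at 24 h (99.8%) had the same sign in both batches. The share with 1 sign in every batch was 2630 of 2722 (96.6%) for αTC1 at 6 h. For βTC3 it was 2870 of 2912 (98.6%) at 6 h and 3888 of 3987 (97.5%) at 24 h. The calls come from the same arrays in a fit with batch as a term. Agreement in sign among called genes was therefore largely set by their selection and is no separate test.

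**Figure D1:**
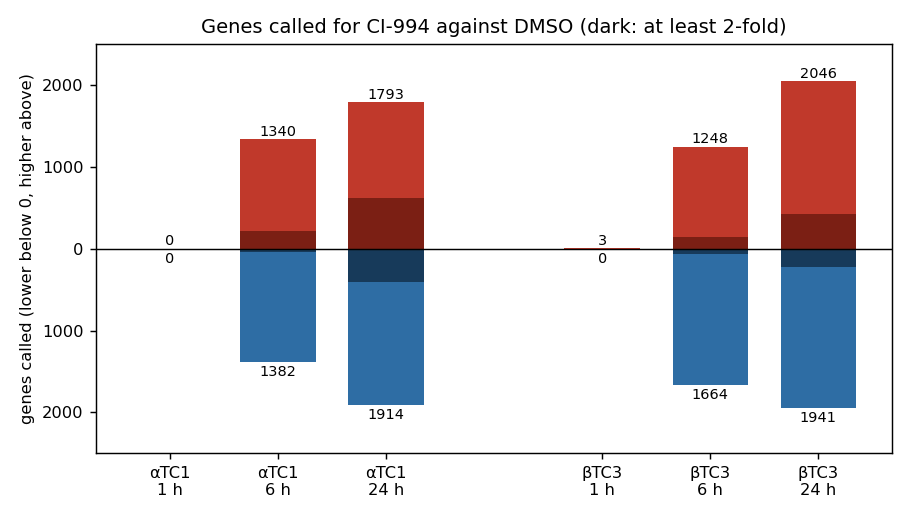
Number of genes called higher (red, above 0) or lower (blue, below 0) for CI-994 against DMSO in each line and at each time, of 11807 genes, with the part that changed at least 2-fold in a darker shade. The bars are almost absent at 1 h and reach 2046 higher and 1941 lower genes in βTC3 at 24 h.

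The largest rises at both later times included a few genes common to both lines. Rsad2 (viperin, an interferon-induced antiviral enzyme) read 9.09, 9.25 and 9.06 on the 3 CI-994 arrays of αTC1 at 6 h against 4.12, 4.63 and 5.05 (lowest, median and highest DMSO array), a rise of 4.46 ± 0.19 (SE; adjusted p = 6.42e-31), or 22.0-fold. At 24 h it read 10.36 and 9.97 against 4.39, 4.86 and 5.63 (35.1-fold). In βTC3 it read 7.52, 7.67 and 8.28 against 3.67, 3.94 and 4.35 at 6 h, a rise of 3.81 ± 0.18 (adjusted p = 3.49e-28), and 8.98, 8.41 and 8.41 against 3.71, 4.28 and 4.99 at 24 h, a rise of 4.21 ± 0.19 (adjusted p = 1.1e-29). All CI-994 arrays at 6 and 24 h thus stood far above every DMSO array, while at 1 h the groups differed 1.13-fold in αTC1 and 1.11-fold in βTC3, with no call.

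Selenop, which encodes the secreted selenium carrier selenoprotein P, rose at 6 h in αTC1 and mainly at 24 h in βTC3. In αTC1 it read 8.06, 7.22 and 7.45 against 3.47, 4.72 and 5.49 at 6 h (a rise of 3.52 ± 0.22, adjusted p = 1.54e-22) and 10.29 and 10.54 against 3.52, 4.86 and 5.74 at 24 h, a rise of 5.84 ± 0.34 (adjusted p = 9.14e-23) or 57.2-fold. In βTC3 at 6 h the arrays overlapped with DMSO at 3.08, 3.65 and 4.02 against 2.86, 3.15 and 3.38, a difference of 0.63 ± 0.15 (adjusted p = 0.000538, and 0.152 without the batch term). At 24 h they read 6.85, 7.06 and 7.19 against 2.91, 3.19 and 3.56, a rise of 4.09 ± 0.24 (adjusted p = 4.09e-24), with no overlap. Ptgr1, an NADPH-dependent reductase of prostaglandins and reactive aldehydes, rose by 1.90 ± 0.18 and 4.79 ± 0.23 at 6 and 24 h in αTC1 and by 1.56 ± 0.19 and 3.80 ± 0.21 in βTC3 (adjusted p between 7.83e-27 and 4.79e-10). Akap12, a scaffold of protein kinase A, rose by 1.52 ± 0.17 and 4.51 ± 0.29 in αTC1 and by 1.03 ± 0.20 and 2.58 ± 0.19 in βTC3 (adjusted p between 1.53e-20 and 3.92e-05). For Ptgr1 and Akap12 every CI-994 array at 6 and 24 h lay above every DMSO array of its line and time. The largest rises, Rsad2 among them, were named among genes without overlap, so such separation was largely set by that choice.

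**Figure D2:**
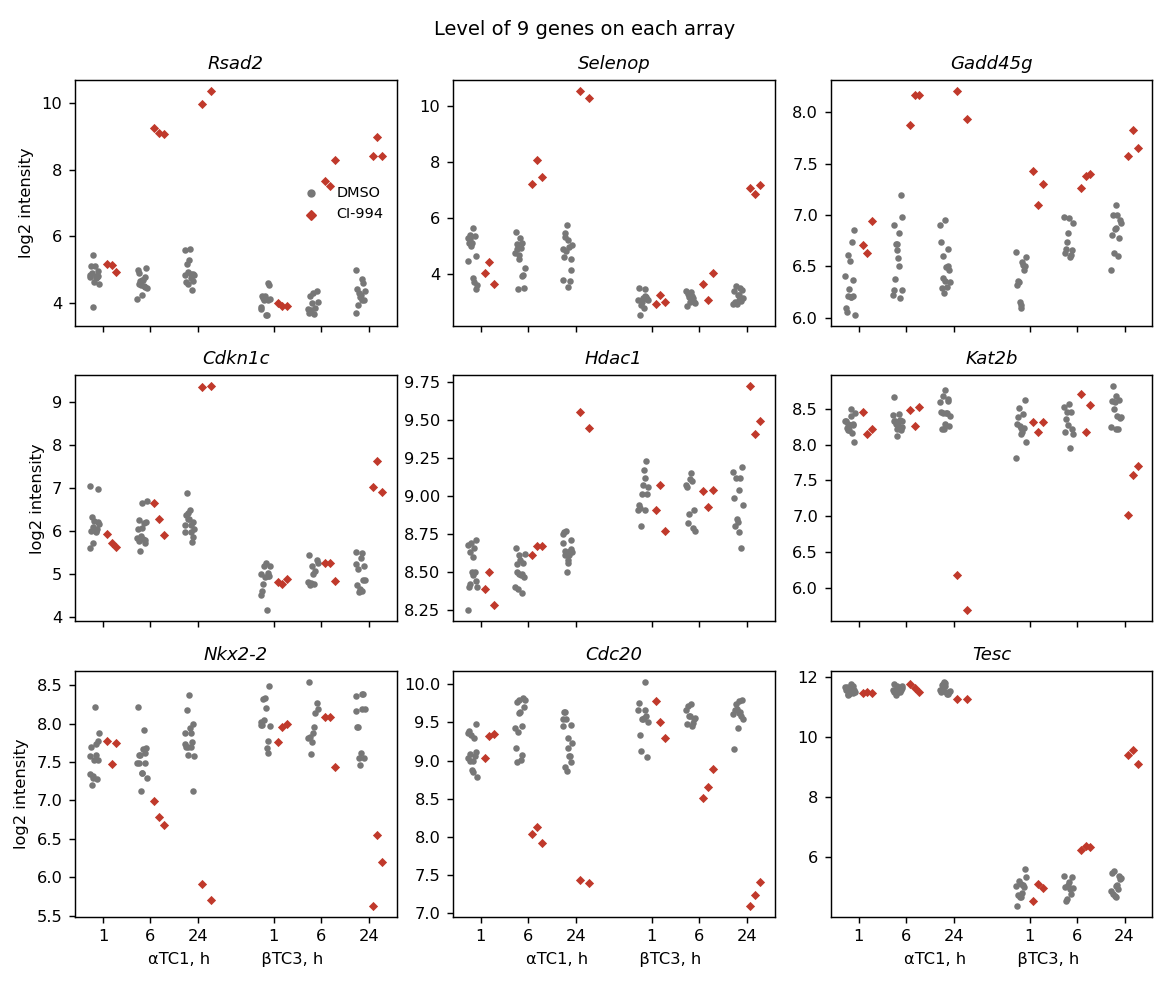
log2 intensity of 9 genes on each array (grey circles, DMSO; red diamonds, CI-994) at 1, 6 and 24 h in αTC1 and βTC3. Arrays of the groups overlap at 1 h for most genes and are far apart at 24 h for Rsad2 (10.36 and 9.97 against at most 5.63 in αTC1), while Tesc is high in αTC1 in both groups (11.28 and 11.26 with CI-994, 11.45 to 11.84 with DMSO) and rises from a DMSO median of 5.07 to 9.59, 9.4 and 9.12 in βTC3.

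Large falls were seen mainly at 24 h. Kcnk2, a two-pore potassium channel, fell by 3.21 ± 0.33 in αTC1 (4.1 and 5.14 against 7.38, 7.91 and 8.46; adjusted p = 1.43e-12). Ap4s1, the small subunit of the AP-4 adaptor complex, changed by -2.55 ± 0.30 in αTC1 (5.21 and 4.64 against 7.2, 7.67 and 7.89; adjusted p = 8.27e-11). In βTC3 it changed by -2.91 ± 0.17 (5.85, 4.77 and 5.29 against 7.77, 8.27 and 8.49; adjusted p = 1.07e-23). Ptpmt1, a mitochondrial phosphatase of the cardiolipin pathway, changed by -2.78 ± 0.24 in αTC1 and -1.91 ± 0.15 in βTC3 (adjusted p = 1.37e-15 and 2.18e-18). Slc38a4, an amino acid transporter, changed by -2.49 ± 0.28 and -1.79 ± 0.20 (adjusted p = 3.6e-11 and 3.63e-12). In each of these comparisons every CI-994 array lay below every DMSO array. The largest falls were named among genes without overlap, so this separation was largely set by that choice. Among all genes at 24 h, 1877 lay wholly below and 1823 wholly above DMSO in αTC1, with 2 CI-994 arrays. In βTC3, with 3 CI-994 arrays, the numbers were 975 and 1077. At 6 h the largest falls were smaller. Dnaaf5, a dynein assembly factor, changed by -1.26 ± 0.13 in αTC1 and -1.34 ± 0.14 in βTC3 (adjusted p = 5.27e-13 and 1.96e-12). Qrsl1, a subunit of the mitochondrial glutaminyl-tRNA amidotransferase, fell by 1.97 ± 0.20 in βTC3 (4.59, 3.87 and 4.08 against 5.93, 6.21 and 6.77; adjusted p = 2.82e-12).

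The 2 lines, which share no control arrays, shared many of their calls. At 24 h 1053 genes were higher in both, 58.7% of the αTC1 and 51.5% of the βTC3 genes, and 1088 were lower in both, 56.8% and 56.1%. At 6 h 574 were higher in both (42.8% and 46%) and 894 were lower in both (64.7% and 53.7%). Across the 11807 genes, which are not independent of each other, the changes in the lines correlated at r = 0.62 at 24 h and 0.6 at 6 h. In all 4 comparisons 262 genes were higher and 403 lower.

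The 3 genes called at 1 h, all in βTC3, encode proteins known for roles in stress and growth arrest. Gadd45g, a growth-arrest and DNA-damage-inducible gene, read 7.1, 7.43 and 7.3 against 6.09, 6.41 and 6.64, a rise of 0.82 ± 0.14 (adjusted p = 0.000814). Ddit4 (REDD1), an inhibitor of mTORC1, read 6.83, 7.29 and 7.27 against 5.05, 6.29 and 6.7, a rise of 0.80 ± 0.13 (adjusted p = 0.000814). Cited2, a transcriptional co-regulator that binds CBP and p300, read 9.56, 9.72 and 9.79 against 8.99, 9.24 and 9.67, a rise of 0.49 ± 0.09 (adjusted p = 0.00664) with 1 CI-994 array inside the DMSO range. The calls were lost under some alternatives, with differences that stayed positive. Gadd45g differed by 0.76 without replicate 3 (adjusted p = 0.128) and 0.72 without replicate 2 (0.133). Ddit4 differed by 0.69 without replicate 3 (adjusted p = 0.157), 1 without the batch term (0.57) and 0.76 with only the arrays compared (0.775). Cited2 differed by 0.42 to 0.47 under 6 alternatives, with adjusted p between 0.0657 and 1. In αTC1 at 1 h the differences were 0.41 for Gadd45g, 0.73 for Ddit4 and -0.03 for Cited2, with adjusted p = 0.998, 0.0935 and 0.998. At 6 h all 3 genes were higher in both lines, by 1.41 and 0.58 for Gadd45g, 1.13 and 1.26 for Ddit4 and 1.49 and 1.46 for Cited2 in αTC1 and βTC3 (adjusted p at most 0.000272). At 24 h they remained higher, by 1.61 and 0.81, 0.82 and 0.86, and 1.67 and 0.85, although in αTC1 Ddit4 lost its call without replicate 2 (0.73, adjusted p = 0.0725).

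Of 16 early genes of stress and growth arrest, the list to which these genes belong, 9 rose and 1 fell at 6 h in αTC1, and 13 rose and 0 fell at 24 h. In βTC3 9 were higher and 0 lower at each time. Their median changes were 0.46 and 1.41 in αTC1 and 0.58 and 0.75 in βTC3, against medians between -0.02 and 0 over all genes. Of all genes 11.3% were higher and 11.7% lower in αTC1 at 6 h, and 15.2% and 16.2% at 24 h. In βTC3 the shares were 10.6% and 14.1% at 6 h and 17.3% and 16.4% at 24 h. The list holds the 3 genes called at 1 h and was written with earlier results of these arrays known, so its counts are descriptive. Immediate early genes form a list of 16 genes that growth factors and depolarisation induce. Of these 4 were higher at 6 h and 8 at 24 h in αTC1, with 7 and 12 in βTC3, and 1 was lower in βTC3 at 24 h. Without replicate 3 the βTC3 count at 6 h was 3, and it was also 3 without the batch term. Fos read 7.83 and 7.01 against 3.56, 5.16 and 6.03 in αTC1 at 24 h, a rise of 2.89 ± 0.31 (adjusted p = 3.68e-12), and rose by 0.93 ± 0.14 in βTC3. Egr1 rose by 1.64 ± 0.26 in αTC1 (5.88 and 5.4 against 3.69, 4.19 and 5.21; adjusted p = 3.8e-07) and by 1.02 ± 0.16 in βTC3 (7.37, 7.34 and 7.4 against 5.66, 6.23 and 6.89; adjusted p = 1.57e-07).

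Transcripts of Hdac1 and Hdac2, 2 of the enzymes that CI-994 inhibits, rose at 24 h. Transcripts of single subunits of their co-repressor complexes, of the acetyltransferase gene Kat2b and of some subunits of acetyltransferase complexes fell. Of the 23 measured genes for class I deacetylases and their complexes, 4 were higher and 4 lower in αTC1 at 6 h, 4 and 5 at 24 h, and in βTC3 3 and 8 at 6 h and 6 and 6 at 24 h. At 24 h these shares lie near or modestly above those of all genes (15.2% and 16.2% in αTC1, 17.3% and 16.4% in βTC3), and the list medians were 0.02 and 0.05. At 6 h the shares of all genes were 11.3% higher and 11.7% lower in αTC1, and 10.6% and 14.1% in βTC3. Without replicate 3 of βTC3 at 6 h 5 were lower, and without the batch term 4. In αTC1 at 6 h 2 in place of 4 were higher without replicate 1 or 2. The same held with centred arrays, with only the arrays compared and with only batches 4 to 6. Hdac1 read 9.45 and 9.55 against 8.5, 8.64 and 8.77 in αTC1 at 24 h, a rise of 0.88 ± 0.11 (adjusted p = 1.82e-09), and 9.41, 9.72 and 9.49 against 8.66, 8.96 and 9.19 in βTC3, a rise of 0.70 ± 0.07 (adjusted p = 3.33e-13). No CI-994 array overlapped with DMSO, whereas at 6 h Hdac1 differed by 0.16 and 0.14 with adjusted p = 0.166 and 0.223. Hdac2 rose by 0.65 ± 0.16 in βTC3 at 24 h (adjusted p = 0.000396), and its rise of 0.59 ± 0.21 in αTC1 (adjusted p = 0.0276) lost its call without either CI-994 array (0.157 and 0.195) and with centred arrays (0.0775). The class IIa enzyme gene Hdac5 rose by 1.73 ± 0.20 in αTC1 at 24 h (5.31 and 4.67 against 3.03, 3.22 and 3.83; adjusted p = 1.1e-10).

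Among complex subunits, the genes of the NuRD proteins Mbd3 and Mta1 fell at 24 h. Mbd3 read 5.47 and 5.46 against 7.57, 8 and 8.35 in αTC1, a difference of -2.36 ± 0.23 (adjusted p = 3.32e-13), and 6.86, 5.51 and 6.42 against 6.97, 7.6 and 8.27 in βTC3, a difference of -1.39 ± 0.16 (adjusted p = 9.25e-12). Mta1 changed by -1.16 ± 0.20 in αTC1 (adjusted p = 1.31e-06) and -0.50 in βTC3 (adjusted p = 0.00705). The NCoR/SMRT subunit genes moved at 6 h in the opposite direction. Tbl1x read 8.24, 8.48 and 8.52 against 6.89, 7.24 and 7.61 in αTC1, a rise of 1.25 ± 0.14 (adjusted p = 1.1e-11), and rose by 1.34 ± 0.12 in βTC3. Tbl1xr1 rose by 1.02 ± 0.12 and 1.50 ± 0.14 at 6 h, and differed from DMSO by 0.04 in αTC1 at 24 h (adjusted p = 0.914). Sin3a, the scaffold of the Sin3 complex, changed by -1.01 ± 0.17 in αTC1 and -1.03 ± 0.13 in βTC3 at 6 h (adjusted p = 1.14e-06 and 3.27e-09), with every CI-994 array below every DMSO array. At 24 h Sin3a was higher in αTC1, by 0.52 ± 0.19 (adjusted p = 0.0303), a call lost under 5 alternatives (0.26 to 0.64, adjusted p 0.0723 to 0.356), and differed by -0.22 in βTC3 (adjusted p = 0.27).

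The gene of the acetyltransferase PCAF, Kat2b, changed late. It differed by 0.18 at 6 h in each line with no call. At 24 h it read 5.69 and 6.18 against 8.21, 8.44 and 8.76 in αTC1 (a fall of -2.47 ± 0.23, adjusted p = 2.14e-14) and 7.57, 7.02 and 7.7 against 8.21, 8.45 and 8.81 in βTC3 (-1.11 ± 0.12, adjusted p = 1.81e-12). Brd8, a bromodomain subunit of the NuA4 acetyltransferase complex, changed at 24 h by -0.89 ± 0.17 in αTC1. Its βTC3 change was -1.57 ± 0.12, from readings of 6.33, 6.23 and 6.19 against 7.59, 7.81 and 8.08 (adjusted p = 2.07e-18). Tada2b, an adaptor of the SAGA acetyltransferase complex, was already lower at 6 h, by -1.21 ± 0.16 in αTC1 and -1.10 ± 0.15 in βTC3 (adjusted p = 5.21e-09 and 2.22e-08). Of the 10 measured genes for acetyltransferases and acetyl-lysine readers, 6 fell and 1 rose in αTC1 at 6 h (3 fell without replicate 1; median -0.33), and 4 fell and 1 rose at 24 h (-0.37). In βTC3 4 were lower and 0 higher at each time (-0.25 and -0.1). For all genes the lower shares were 11.7% and 14.1% at 6 h in αTC1 and βTC3, and 16.2% and 16.4% at 24 h.

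Genes known to rise under deacetylase inhibitors in many cell types rose here: of 9 measured, 5 rose at 6 h in each line, and 8 in αTC1 and 7 in βTC3 rose at 24 h, with none falling. The list was assembled from general knowledge of the class with earlier results of these arrays in view. Among all genes 11.3% and 10.6% were higher at 6 h in αTC1 and βTC3, and 15.2% and 17.3% at 24 h. Txnip, an inhibitor of thioredoxin and of glucose uptake, read 8.76 and 8.69 against 5.07, 6.51 and 7.19 in αTC1 at 24 h, a rise of 2.49 ± 0.30 (adjusted p = 1.8e-10), and rose by 1.50 ± 0.14 in βTC3 (adjusted p = 3.2e-15). Gsn, the actin-severing protein gelsolin, rose by 2.06 ± 0.19 (5.31 and 5.1 against 2.9, 3.11 and 3.2) and 1.98 ± 0.22 (5.1, 5.36 and 5.03 against 2.92, 3.21 and 3.44). Clu, the secreted chaperone clusterin, rose by 2.50 ± 0.22 in αTC1 at 24 h (11.16 and 11.16 against 7.97, 8.78 and 9.22). Hexim1, an inhibitor of the elongation factor P-TEFb, rose in αTC1 by 1.38 ± 0.14 (9.04 and 8.89 against 7.44, 7.81 and 8.08; adjusted p = 9.59e-13) and differed by -0.09 in βTC3 (adjusted p = 0.553), and the difference between the lines was 1.47 ± 0.17 (adjusted p = 1.71e-12).

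The cyclin-dependent kinase inhibitors moved at different times. Cdkn2b (p15) rose by 1.52 ± 0.11 in αTC1 and 1.51 ± 0.11 in βTC3 at 6 h (8.63, 8.46 and 8.21 against 6.66, 7.18 and 7.74, and 8.02, 7.78 and 8.19 against 6.26, 6.74 and 6.92; adjusted p = 7.93e-19 and 8.82e-19). At 24 h it differed by 0.38 in αTC1 (adjusted p = 0.0928) and was higher by 1.15 ± 0.13 in βTC3. Cdkn1c (p57) differed by 0.36 and 0.07 at 6 h with no call, and rose at 24 h by 3.13 ± 0.24 in αTC1 (9.35 and 9.33 against 5.75, 6.18 and 6.89; adjusted p = 2.83e-17) and by 2.23 ± 0.18 in βTC3 (7.62, 7.01 and 6.9 against 4.59, 5 and 5.51; adjusted p = 4.88e-17). Cdkn1a (p21), the inhibitor most often linked to these compounds, rose less: by 0.94 ± 0.22 in αTC1 (9.4 and 9.22 against 7.27, 8.31 and 8.75; adjusted p = 0.000435) and 0.74 ± 0.11 in βTC3 (9.82, 9.64 and 9.69 against 8.73, 8.89 and 9.38; adjusted p = 5.81e-08). Cdkn1b (p27) differed by 0.14 in αTC1 (adjusted p = 0.74) and by -0.52 ± 0.14 in βTC3 (adjusted p = 0.00127, and 0.0522 without the batch term). Ccnd2 (cyclin D2), which promotes entry into S phase, rose with the inhibitors at 24 h. It read 7.1 and 6.7 against 2.87, 3.26 and 3.5 in αTC1 and 6.67, 7.13 and 6.9 against 2.92, 3.14 and 3.25 in βTC3. These were rises of 3.63 ± 0.24 and 3.67 ± 0.26 (adjusted p = 5.75e-20 and 4.12e-20), after a difference of -0.02 at 6 h in βTC3.

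Genes of mitosis fell in βTC3 almost as a group, and in αTC1 in part. At 24 h in βTC3 20 of the 21 measured genes of mitosis fell and 0 rose, from -0.48 for Cdk1 to -2.48 for Cenpa, with a median change of -1.41. In αTC1 9 fell and 0 rose, with a median of -0.24 (5 fell and 1 rose without replicate 2). At 6 h αTC1 had 8 lower and 1 higher, and βTC3 had 6 lower and 1 higher. The shares of all genes lower were 11.7% and 14.1% at 6 h in αTC1 and βTC3, and 16.2% and 16.4% at 24 h. Cdc20, the activator of the anaphase-promoting complex, fell at both times in both lines. It read 8.13, 8.04 and 7.92 against 8.98, 9.54 and 9.82 in αTC1 at 6 h (-1.41 ± 0.14, adjusted p = 1.72e-13) and 7.4 and 7.43 against 8.86, 9.26 and 9.64 at 24 h (-1.56 ± 0.24, adjusted p = 2.36e-07). In βTC3 it read 8.65, 8.51 and 8.89 against 9.45, 9.57 and 9.74 at 6 h (-0.96 ± 0.11) and 7.24, 7.1 and 7.41 against 9.15, 9.64 and 9.79 at 24 h (-2.28 ± 0.15, adjusted p = 5.26e-22). All CI-994 arrays lay below all DMSO arrays in each of these comparisons. Cenpa, the centromeric histone H3 variant, changed by -1.59 ± 0.25 in αTC1 (6.85 and 6.56 against 8.13, 8.51 and 8.83) and -2.48 ± 0.15 in βTC3 (6.42, 5.9 and 6.7 against 8.39, 9.04 and 9.33; adjusted p = 7.28e-23). The mitotic kinase gene Plk1 fell by 1.96 ± 0.16 in βTC3 (6.22, 5.98 and 6.46 against 7.74, 8.16 and 8.52). In αTC1 it changed by -1.01 ± 0.26 (adjusted p = 0.000932), and by -0.79 with adjusted p = 0.116 without replicate 2. Ccnb2 (cyclin B2) was higher at 6 h in αTC1, by 0.56 ± 0.14 (adjusted p = 0.000807, and 0.188 without the batch term). In βTC3 at 6 h it was higher by 0.32 ± 0.12 (adjusted p = 0.0311), a call lost without any 1 of the replicates (0.28 to 0.36, adjusted p 0.0523 to 0.149) and without the batch term (0.23, adjusted p = 0.285). At 24 h it was lower, by -0.77 ± 0.19 in αTC1 and -1.78 ± 0.14 in βTC3 (7.15, 5.97 and 6.74 against 7.86, 8.65 and 8.99; adjusted p = 7.78e-18). Ube2c, the ubiquitin-conjugating enzyme that works with the anaphase-promoting complex, was among the largest falls in βTC3 at 24 h (8.98, 8.26 and 8.6 against 10.61, 10.95 and 11.18; -2.33 ± 0.13, adjusted p = 5.1e-25).

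**Figure D3:**
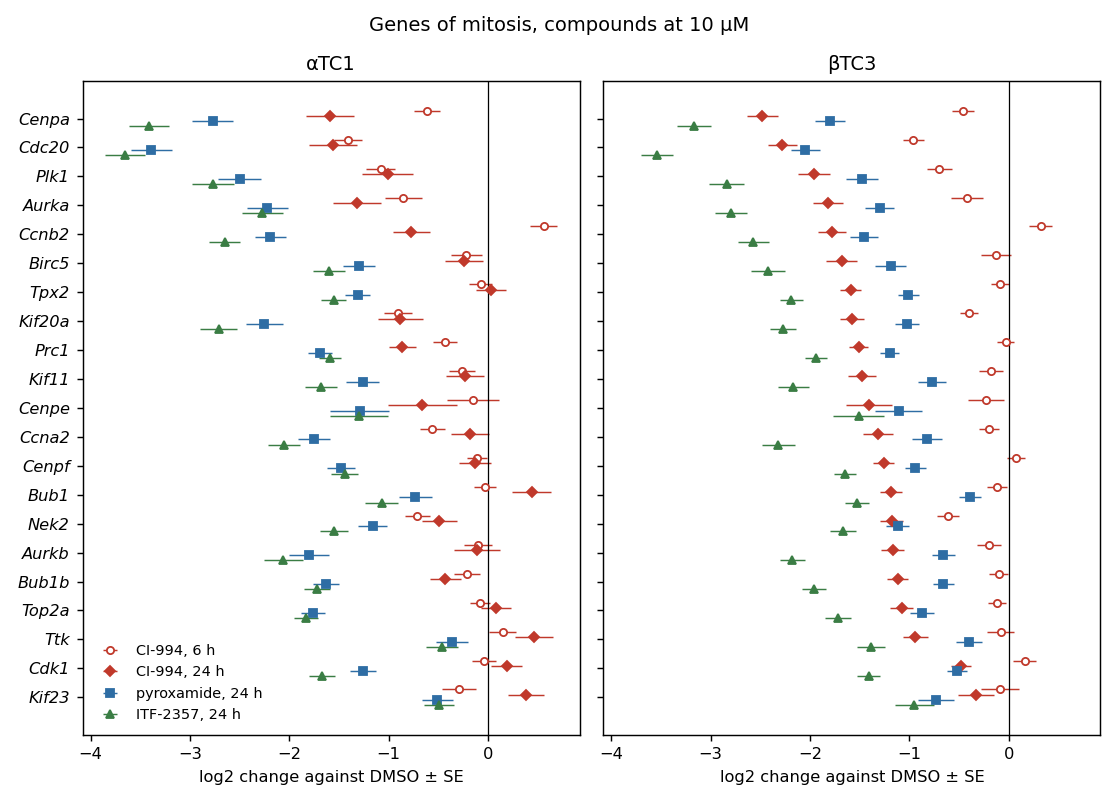
log2 change against DMSO (± SE) of 21 genes of mitosis under CI-994 at 6 h (open circles) and 24 h (diamonds), pyroxamide at 24 h (squares) and ITF-2357 at 24 h (triangles), in αTC1 and βTC3. The CI-994 diamonds at 24 h lie near 0 for many genes in αTC1 and left of 0 for all genes in βTC3, where Cenpa is at -2.48.

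The difference between the lines was itself tested. At 24 h the change was less negative in αTC1 than in βTC3 for 18 of the 21 mitosis genes called, against 8.14% of all genes with a higher and 8.9% with a lower change in αTC1, and the median difference was 0.94. Leaving out the replicate 1 arrays lowered the 18 to 10, and so did leaving out the batch term. At 6 h, when 4.04% of all genes differed in 1 direction and 2.75% in the other, none of the 21 differed between the lines. Between 6 and 24 h the change became more negative for 20 of the 21 mitosis genes in βTC3 (median -1.18; 10.6% of all genes went up and 7.5% down between the times) and for 2 in αTC1, where 1 went up (10.7% and 10.8% of all genes). With centred arrays, over all genes, 944 went up and 1371 down between the times in βTC3, in place of 1248 and 885, and at 6 h 329 were higher and 553 lower in αTC1 than in βTC3, in place of 477 and 325.

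The promoters of 4 of these genes are shown because cell cycle genes of late G2 and mitosis are known for 2 short elements near the start site, the CHR (TTTGAA or TTTAAA) and the CCAAT box bound by NF-Y. Sequences are from RefSeq (GRCm38.p6), cover bases -120 to -1 before the annotated start, are written 5′ to 3′ on the strand of the gene, and carry in capitals each match on either strand (a CCAAT box on the other strand reads ATTGG).
Cdc20, chr4:118437344-118437463, minus strand: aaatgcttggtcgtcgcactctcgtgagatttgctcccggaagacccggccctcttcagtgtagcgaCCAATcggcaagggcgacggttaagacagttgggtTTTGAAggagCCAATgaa
Cenpa, chr5:30666766-30666885, plus strand: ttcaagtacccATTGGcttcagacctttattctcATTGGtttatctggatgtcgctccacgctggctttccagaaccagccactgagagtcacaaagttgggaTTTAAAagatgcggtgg
Plk1, chr7:122159315-122159434, plus strand: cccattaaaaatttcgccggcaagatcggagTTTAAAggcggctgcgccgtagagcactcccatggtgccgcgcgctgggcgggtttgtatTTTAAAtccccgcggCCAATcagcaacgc
Ccnb2, chr9:70421555-70421674, minus strand: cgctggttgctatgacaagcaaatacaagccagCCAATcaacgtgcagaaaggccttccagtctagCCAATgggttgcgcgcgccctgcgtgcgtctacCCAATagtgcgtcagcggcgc
In Cdc20, which fell at both times in both lines, a CHR match began at -18 and CCAAT matches at -53 and -8. In Ccnb2, which was higher at 6 h in αTC1 and lower at 24 h in both lines, 3 CCAAT matches began at -87, -54 and -21 and no CHR match was found in these letters. Of the 17 mitosis genes with a promoter in the table, 7 (41.2%) held a CHR match and 16 (94.1%) a CCAAT match in this window, against 3642 (13.5%) and 6548 (24.2%) of all 27025 promoters and 10% and 27.8% of those of the genes measured here. A match describes the letters and not the binding of a factor.

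DNA replication genes were lower mainly at 6 h in αTC1 and at both times in βTC3. Of 20 measured, 9 were lower and 1 higher in αTC1 at 6 h (median -0.32), and 1 was lower and 2 higher at 24 h (0.11). In βTC3 12 were lower and 0 higher at 6 h (-0.39), and 11 lower and 1 higher at 24 h (-0.29). Among all genes 11.7% were lower in αTC1 and 14.1% in βTC3 at 6 h, and 16.2% and 16.4% at 24 h. With the array plate as a random block 14 of the DNA replication genes fell in αTC1 at 6 h. Pole3, a histone-fold subunit of DNA polymerase epsilon, changed at 6 h by -1.22 ± 0.14 in αTC1 (5.9, 6.07 and 6.21 against 6.76, 7.25 and 7.67; adjusted p = 1.73e-10) and -0.63 ± 0.14 in βTC3. At 24 h it changed by -0.60 ± 0.19 in αTC1 (adjusted p = 0.00804, and 0.336 without replicate 2) and -0.95 ± 0.14 in βTC3. Histone genes moved both ways. The linker histone gene H1f2 rose in αTC1 at 6 h by 2.36 ± 0.16 (9.52, 9.28 and 9.14 against 6.16, 7.06 and 7.84) and in βTC3 by 1.73. The variant genes H2ax and Macroh2a2 fell at 24 h, with changes of -1.58 ± 0.22 and -1.96 ± 0.26 in αTC1 and -1.50 ± 0.13 and -1.56 in βTC3.

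Part of the interferon-stimulated and antigen presentation genes rose at 24 h in each line. Of 13 measured interferon response genes, 5 rose in αTC1 at 6 h and 8 at 24 h (median 0.72). In βTC3 6 were higher and 1 lower at each time (medians 0.38 and 0.24). The shares of all genes higher were 11.3% and 15.2% at 6 and 24 h in αTC1, and 10.6% and 17.3% in βTC3. With dim genes left out, fewer of the 13 could be tested, and 4 rose in αTC1 and 3 in βTC3 at 24 h. Rsad2 had by far the largest rise among them. Ifit2, an RNA-binding antiviral protein, rose in αTC1 at 6 h by 1.56 ± 0.14 (5.6, 6.21 and 5.8 against 3.93, 4.3 and 4.68) and by 0.50 in βTC3 at 24 h. Ifit3 differed by 0.24 in αTC1 at 6 h (adjusted p = 0.056), then rose by 0.72 ± 0.13 at 24 h (3.47 and 3.45 against 2.49, 2.75 and 3.06), and rose by 1.10 ± 0.17 and 0.86 ± 0.20 in βTC3. In αTC1 at 24 h Usp18, Stat2 and Irf7 rose by 1.48, 1.42 and 1.36, whereas Oasl2 fell by 0.87 in βTC3.

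The interferon-stimulated response element was searched for in the same promoter table as GAAANNGAAA on either strand, in bases -250 to -1. Bases -200 to -81 of Rsad2 and Ifit3 are shown, as members of 1 list with rises of very different size, with matches in capitals.
Rsad2, chr12:26456533-26456652, minus strand: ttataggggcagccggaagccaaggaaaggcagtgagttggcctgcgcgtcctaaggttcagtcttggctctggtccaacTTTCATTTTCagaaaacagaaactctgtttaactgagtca
Ifit3, chr19:34583329-34583448, plus strand: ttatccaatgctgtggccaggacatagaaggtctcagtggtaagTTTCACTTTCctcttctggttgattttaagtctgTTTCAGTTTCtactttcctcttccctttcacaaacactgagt
Within the bases shown, Rsad2, with the rise of 35.1-fold in αTC1, held 1 match, beginning at -120, and Ifit3 held 2, beginning at -156 and -122. Positions outside the bases shown were not listed. In bases -250 to -1 a match was present in 4 of the 10 interferon response genes with a promoter in the table (40%). The same held for 936 of all promoters (3.46%) and 315 of those of the measured genes (3.34%).

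Of 11 measured antigen presentation genes, αTC1 had 2 higher and 1 lower at 6 h and 7 higher and 1 lower at 24 h (median 1). βTC3 had 1 higher and 1 lower at 6 h and 5 higher and 2 lower at 24 h (median 0.08). The shares of all genes at 6 h were 11.3% higher and 11.7% lower in αTC1, and 10.6% and 14.1% in βTC3. At 24 h they were 15.2% and 16.2%, and 17.3% and 16.4%. H2-D1, a classical MHC class I heavy chain, read 9.48 and 9.47 against 5.8, 6.24 and 6.51 in αTC1 at 24 h, a rise of 3.19 ± 0.24 (adjusted p = 1.3e-17). In βTC3, where the DMSO level of H2-D1 was already 10.19 to 10.95, it rose by 0.71 ± 0.13 (11.14, 11.18 and 11.36; adjusted p = 2.4e-06), and the difference between lines was 2.47 ± 0.27 (adjusted p = 1.34e-13). H2-K1, a classical class I gene as well, rose by 2.34 ± 0.23 and 0.79. The immunoproteasome subunit genes moved in opposite directions. Psmb9 rose by 2.20 ± 0.19 in αTC1 (6.64 and 6.62 against 4.04, 4.34 and 4.68) and 1.14 ± 0.12 in βTC3. Psmb10 changed by -2.07 ± 0.20 (4.3 and 3.85 against 5.92, 6.25 and 6.59) and -1.71 ± 0.15.

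Glutathione transferases, which conjugate glutathione to electrophiles, rose broadly at 24 h. Of 16 measured, 6 were higher in αTC1 at 6 h and 13 at 24 h (median 1.2), with none lower. In βTC3 5 were higher and 1 lower at 6 h, and 11 were higher at 24 h (median 0.65). Among all genes 11.3% were higher in αTC1 and 10.6% in βTC3 at 6 h, and 15.2% and 17.3% at 24 h. The βTC3 count at 6 h fell to 3 without replicate 1, without replicate 3 or without the batch term, and was 8 with the plate as a random block or with only the arrays compared. Gsta4, which clears 4-hydroxynonenal, read 9.14 and 9.11 against 3.63, 3.77 and 4.24 in αTC1 at 24 h, a rise of 5.09 ± 0.34 (34.1-fold; adjusted p = 6.6e-20), and 4.54, 4.75 and 4.86 against 3.15, 3.26 and 3.46 in βTC3 (1.45 ± 0.15). Gstk1, the peroxisomal and mitochondrial form, had the reverse order, with rises of 1.90 ± 0.25 in αTC1 and 3.25 ± 0.21 in βTC3 (7.04, 6.97 and 7.25 against 3.41, 3.98 and 4.28). Both differences between lines passed the test, at 3.65 for Gsta4 and -1.34 for Gstk1 (adjusted p = 1.62e-15 and 0.00107). Gstt1 rose in both lines, by 2.54 ± 0.19 (8.91 and 8.67 against 5.86, 6.1 and 6.52) and 2.41 ± 0.18 (8.44, 8.26 and 8.02 against 5.22, 5.96 and 6.61). Of 11 measured targets of the oxidative stress factor NRF2, 7 rose and 0 fell at 24 h in each line (medians 0.77 and 0.49). Hmox1, the heme-degrading enzyme, rose by 2.08 in αTC1 and 0.74 in βTC3, and Gclc, the catalytic subunit for glutathione synthesis, by 1.57 and 0.90.

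Ins2 in βTC3 and Gcg in αTC1 changed by less than 2-fold, and several transcription factors of islet identity fell. Ins2 in βTC3 at 24 h read 13.3, 13.26 and 13.39 against 13.02, 13.24 and 13.36, a difference of 0.12 ± 0.06 (adjusted p = 0.147), at a signal near the top of the array's range. Gcg in αTC1 at 24 h read 12.72 and 12.7 against 11.9, 12.31 and 12.74, a rise of 0.55 ± 0.13 (adjusted p = 0.00049) with overlap. Gcg in βTC3 read 10.72, 8.85 and 10.41 against 6.18, 9.12 and 10.43 at 24 h, a rise of 1.41 ± 0.20 (adjusted p = 7.9e-09). The spread of this signal lay between batches: within batches 4, 5 and 6 the difference was 2.6, 0.65 and 1.02, and without the batch term it was 1.21 with adjusted p = 0.321.

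Nkx2-2, a transcription factor that alpha and beta cells share, fell at 24 h, with a change of -2.09 ± 0.26 in αTC1 (5.7 and 5.91 against 7.12, 7.75 and 8.37; adjusted p = 7.41e-10). In βTC3 its change was -1.77 ± 0.19 (6.55, 5.63 and 6.2 against 7.46, 8.06 and 8.38; adjusted p = 3.06e-12), with no overlap in either line. Pdx1, the factor that maintains beta cells, fell in βTC3 by 0.75 ± 0.13 (8.33, 8.08 and 8.38 against 8.55, 9.21 and 9.73; adjusted p = 2.79e-06). G6pc2, the islet glucose-6-phosphatase subunit, changed by -2.52 ± 0.30 in αTC1 (5.3 and 6.72 against 8.15, 8.71 and 9.31; adjusted p = 1.95e-10) and -0.68 ± 0.18 in βTC3 (10.02, 10.21 and 10.29 against 10.63, 10.93 and 11.17; adjusted p = 0.00152). Of the 11 measured beta cell markers 6 fell and 0 rose in βTC3 at 24 h (median -0.64), after 2 rose and 0 fell at 6 h. They included Nkx6-1 (-0.96) and the incretin receptor gene Glp1r (-1.20 ± 0.27, adjusted p = 0.000146, with overlap). Of the 7 measured alpha cell markers 2 rose and 2 fell in αTC1 at 24 h. The falls were those of the Iroquois factors, with Irx1 at 6.47 and 6.62 against 7.15, 7.49 and 7.77 (-0.97 ± 0.19, adjusted p = 3.32e-05) and Irx2 at 7.88 and 7.96 against 8.5, 8.79 and 8.95 (-0.85 ± 0.15). Th, tyrosine hydroxylase of catecholamine synthesis, changed by -1.45 ± 0.27 in αTC1 and -2.31 ± 0.22 in βTC3 at 24 h (6.43, 5.76 and 5.97 against 7.63, 8.42 and 8.72; adjusted p = 1.62e-14). Of 19 measured genes of regulated secretion, 9 were higher and 2 lower in αTC1 at 24 h. In βTC3 8 were higher and 3 lower (5 and 3 with only the arrays compared). Neuronal genes gave 9 rises and 2 falls of 20 measured in each line. L1cam, a neuronal adhesion molecule, rose by 2.59 ± 0.27 in αTC1 (7.16 and 7.1 against 3.66, 4.39 and 4.75) and 2.12 ± 0.18 in βTC3. For all genes at 24 h the shares were 15.2% higher and 16.2% lower in αTC1, and 17.3% and 16.4% in βTC3. The falls in the secretion and neuronal lists lay below these shares.

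**Figure D4:**
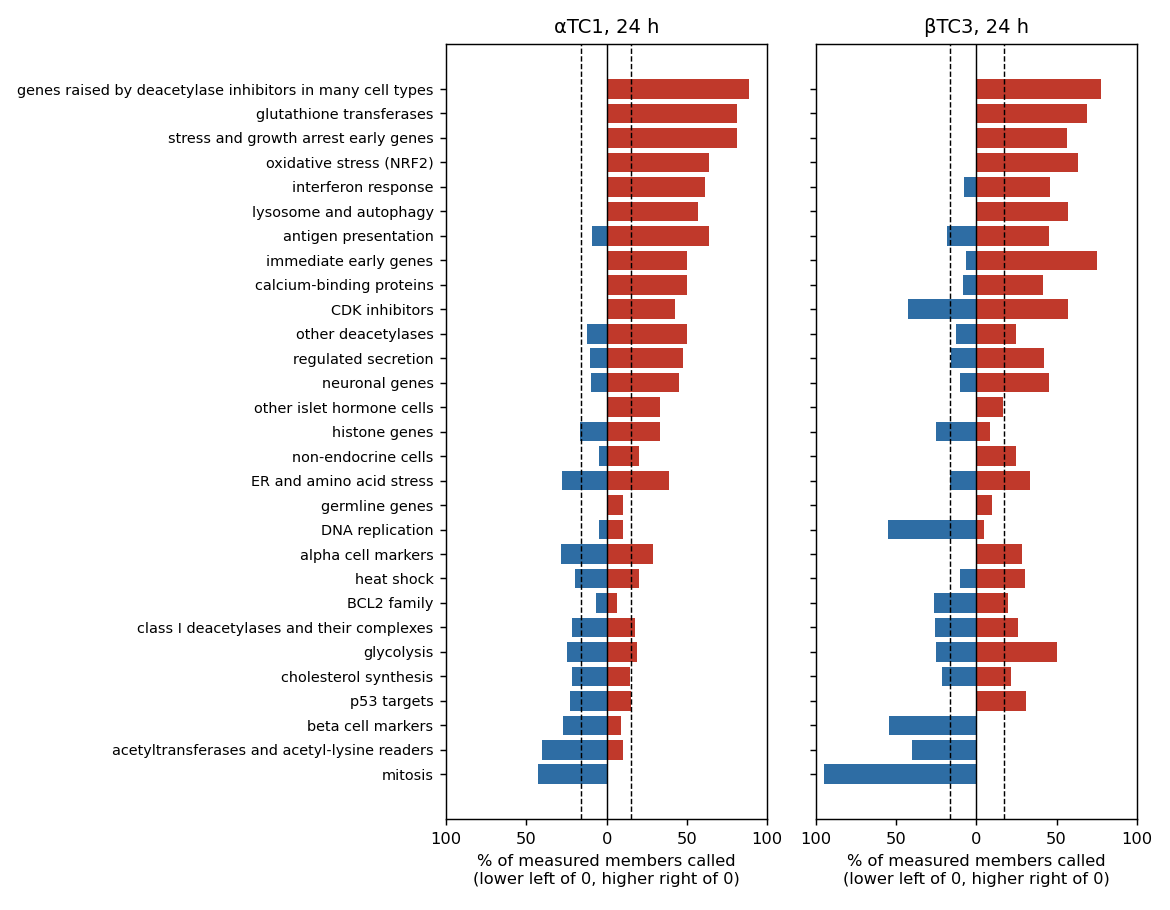
Share of the measured members of each of 29 gene lists called higher (red, right of 0) or lower (blue, left of 0) for CI-994 against DMSO at 24 h, in αTC1 and βTC3. Dashed lines mark the share of all 11807 genes called, 15.2% higher and 16.2% lower in αTC1 and 17.3% and 16.4% in βTC3, and the longest lower bar is that of mitosis in βTC3, where 20 of 21 genes were called.

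Some of the largest responses were seen in 1 line and tested as different between the lines. At 24 h 961 genes changed more positively in αTC1 and 1051 more positively in βTC3 (8.14% and 8.9%), and at 6 h 477 and 325 did. Leaving out the arrays of 1 replicate number left between 1077 and 1769 of the 2012 genes called at 24 h. Tesc, a calcium-binding regulator of calcineurin, stood at 11.28 and 11.26 against 11.45, 11.56 and 11.84 in αTC1 and rose in βTC3 from 4.69, 5.07 and 5.54 to 9.59, 9.4 and 9.12 (4.47 ± 0.27, adjusted p = 1.59e-23), and the lines differed by -4.70 ± 0.33. Lpl, lipoprotein lipase, had the same pattern, at 11.37 and 11.43 against 11.17, 11.34 and 11.63 in αTC1 and 7.92, 8.08 and 7.84 against 3.36, 3.87 and 4.49 in βTC3 (a rise of 4.04 ± 0.23; difference -3.95 ± 0.31). For both genes the level under CI-994 in βTC3 stayed below the DMSO level in αTC1.

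Other genes rose in βTC3 from a low level in both lines. Calb1, the calcium buffer calbindin, read 7.39, 7.35 and 7.2 against 2.72, 3.01 and 3.23 (a rise of 4.26 ± 0.22, adjusted p = 7.44e-27) and rose by 0.63 ± 0.16 in αTC1. Hspb1, a small heat shock protein, read 9.51, 8.89 and 9.22 against 5.33, 5.61 and 6.2 (3.56 ± 0.18) and differed by 0.03 in αTC1 (adjusted p = 0.929). The secreted protease gene Htra1 rose by 3.79 ± 0.21 in βTC3 (7.6, 7.18 and 6.97 against 3.16, 3.34 and 3.8) with a change of 0.34 in αTC1. Cd44, the hyaluronan receptor, rose in βTC3 at 6 h already (7.08, 7.04 and 6.32 against 3.55, 4.88 and 5.38; 2.36 ± 0.13) and differed by -0.1 in αTC1. Tdo2, tryptophan dioxygenase, rose in βTC3 at 6 h by 2.32 ± 0.13 (5.39, 5.59 and 5.96 against 3.16, 3.33 and 3.97) and differed by 0.19 at 24 h (adjusted p = 0.507). The reverse was seen for Adh1, an alcohol dehydrogenase, which in αTC1 read 5.95 and 6.98 against 2.88, 3.17 and 3.39 (3.23 ± 0.32) and in βTC3 differed by -0.1. Ppp1r3c, a glycogen-targeting subunit of protein phosphatase 1, rose in αTC1 at 6 h by 3.11 ± 0.17 (7.68, 8.22 and 7.87 against 3.96, 4.92 and 5.54). Kcnk2 fell in αTC1 and stayed at its low level in βTC3, with a difference of 0.12 (adjusted p = 0.376).

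**Figure D5:**
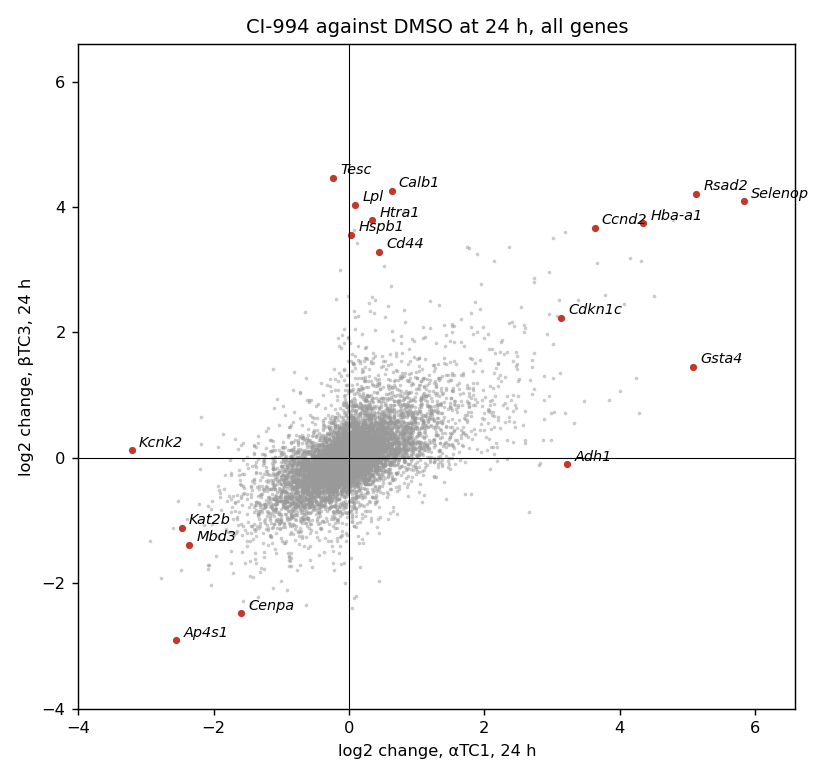
log2 change for CI-994 against DMSO at 24 h in αTC1 (x axis) and βTC3 (y axis) for all 11807 genes (grey), with some named genes in red. Tesc, Lpl, Calb1, Htra1, Hspb1 and Cd44 span -0.23 to 0.63 on the αTC1 axis and 3.29 to 4.47 on the βTC3 axis, while Rsad2, Selenop, Ccnd2 and Hba-a1 are high in both lines.

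Time also separated genes that were called at 24 h. The change between 6 and 24 h was upward for 1264 and downward for 1278 genes in αTC1, and 1248 and 885 in βTC3. Hba-a1, alpha-globin, differed by 0.34 at 6 h and rose by 4.35 ± 0.30 at 24 h in αTC1 (8.79 and 8.77 against 3.74, 4.15 and 4.5), and by 3.74 ± 0.25 in βTC3. Cryba2, a crystallin, differed by 0.16 at 6 h in αTC1 and fell by 2.94 ± 0.31 at 24 h (4.4 and 4.69 against 7.25, 7.76 and 8.11). G6pc2 changed direction in αTC1: it was 0.64 ± 0.19 higher at 6 h (adjusted p = 0.00693, with 0.255 without the batch term and 0.0689 and 0.0604 without replicate 1 or 3) before its fall at 24 h. Leaving out replicate 1 or replicate 2 in αTC1 left 1548 or 1543 genes that differed between the times in place of 2542.

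The summed linear intensity of 20 measured marker genes of non-endocrine cells was 341 to 434 on the CI-994 arrays of αTC1 against 228 to 286 with DMSO, and 251 to 295 against 168 to 199 in βTC3. At 6 h it was 282 to 314 against 240 to 296 and 180 to 192 against 174 to 189. In αTC1 at 24 h 4 of the 20 rose (Des, Alb, Krt19 and Col1a1, by 2.60 ± 0.24, 1.99 ± 0.26, 0.93 and 0.80) and Cela1 fell (-1.68). In βTC3 5 rose (Vim, Krt18, Des, Col1a1 and Alb, by 2.35 ± 0.20, 2.26 ± 0.16, 0.75, 0.72 and 0.44). The counts compare with 15.2% higher and 16.2% lower among all genes in αTC1 and 17.3% and 16.4% in βTC3, and the list medians were 0.11 and 0.1. The 6 genes that rose belong to different cell types, namely muscle, liver, duct, mesenchyme and epithelium. Nearly all markers of the list gave dim signals. With dim genes left out, 1 of the 20 could be tested in αTC1 at 24 h, and it rose, and 0 could be tested in βTC3. No intensity on these arrays is 0, the lowest being 3.962. The part of other cells in the changes at 24 h was not tested. In these bulk samples fewer cells of a type and less RNA per cell cannot be told apart.

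The anilides MS-275 and MGCD-0103 were used at lower doses than CI-994 and share its DMSO arrays, so their values are set side by side without a test. At 6 h 1692 and 2106 genes were called for MS-275 at 2.9 µM in αTC1 and βTC3 and 1278 and 1861 for MGCD-0103 at 1.1 µM, beside 2722 and 2912 for CI-994. At 24 h the numbers were 4447 and 3890, 3802 and 3731, and 3707 and 3987, and at 1 h no gene was called for either compound. The 24 h change of Rsad2 in αTC1 was 5.22 for MS-275, 5.17 for MGCD-0103 and 5.13 for CI-994, and in βTC3 3.86, 4.18 and 4.21. For Tesc, Calb1 and Lpl the doses and values differed: Calb1 rose by 3.86, 2.84 and 4.26 in βTC3 and Lpl by 3.36, 2.79 and 4.04. Of the 21 mitosis genes, 21 fell for MS-275 and 20 for MGCD-0103 in βTC3 at 24 h (median -1.27 for each), and 11 and 9 fell in αTC1, where 1 rose for MS-275 (medians -0.54 and -0.32). Of all 11807 genes 1859 and 1837 fell in βTC3, and 2302 and 1901 fell in αTC1, where 2145 rose for MS-275.

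Pyroxamide and ITF-2357 were used at the same dose and time as CI-994. Their zinc-binding group is a hydroxamic acid in place of the ortho-amino anilide, and they act on a broader set of enzymes. Inhibition was not measured on these arrays, and an equal dose need not inhibit equally. Differences by chemical group, enzyme range and strength of inhibition therefore cannot be told apart. The effects of the hydroxamic acids were compared with those of CI-994 in 4 pairs, 1 for each compound in each line. The p-values were adjusted over all genes and both compounds of a line. The arrays of these compounds lay in batches 7 to 10 and those of CI-994 in batches 4 to 6. Each difference therefore rests on the batch terms estimated from DMSO and other arrays, and a fit within shared batches could not be made. All 3 arrays of ITF-2357 in βTC3 lay in batch 10. On the ITF-2357 side its differences from CI-994 in βTC3 thus rest on the term of that 1 batch. In αTC1 927 genes were higher and 948 lower with CI-994 than with pyroxamide (7.85% and 8.03%), and 1075 and 1381 than with ITF-2357 (9.1% and 11.7%). In βTC3 the numbers were 843 and 777 (7.14% and 6.58%) and 1194 and 1145 (10.1% and 9.7%). Without replicate 1 or 2 of CI-994 in αTC1, which left 1 array, fewer genes were called against either compound.

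Most mitosis genes differed between the compounds in αTC1. Pyroxamide lowered 20 and ITF-2357 lowered all 21 of them (medians -1.63 and -1.68, against -0.24 for CI-994), and 20 of 21 were higher with CI-994 than with either compound (median differences 1.2 and 1.51). Of all 11807 genes pyroxamide lowered 2392 and ITF-2357 lowered 2398 in αTC1, against 1914 for CI-994. For Cdc20 the difference in αTC1 was 1.82 ± 0.31 from pyroxamide (95% interval 1.21 to 2.43, adjusted p = 4.16e-06) and 2.09 ± 0.30 from ITF-2357 (1.48 to 2.69). In βTC3 pyroxamide and CI-994 were closer: 8 of the 21 mitosis genes were lower with CI-994 and none higher (median -0.48), and Cdc20 differed by -0.23 with an interval from -0.62 to 0.16. Against ITF-2357 in βTC3, 16 of the mitosis genes were higher with CI-994 (median 0.69), with Cdc20 at 1.26 ± 0.21 (0.85 to 1.67). DNA replication genes in αTC1 were also higher with CI-994, 10 of 20 against pyroxamide (5 without replicate 1 or 2) and 15 against ITF-2357 (8 or 9 without them, and 8 without the batch term).

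The growth arrest genes Gadd45g and Cdkn1a rose with CI-994 more than with the hydroxamic acids, except for Cdkn1a against ITF-2357 in αTC1, which missed the threshold. Gadd45g changed by -0.03 and 0.02 with pyroxamide and ITF-2357 in αTC1 and by -0.05 and -0.63 in βTC3. CI-994 exceeded them by 1.64 ± 0.26 (1.13 to 2.15) and 1.59 ± 0.25 in αTC1 and by 0.86 ± 0.19 and 1.44 ± 0.20 in βTC3 (adjusted p at most 0.000472). Cdkn1a was 0.77 ± 0.15 above pyroxamide (0.47 to 1.06, adjusted p = 5.11e-05) and 0.77 ± 0.16 above ITF-2357 in βTC3. In αTC1 Cdkn1a differed by 0.85 from pyroxamide (0.29 to 1.4, adjusted p = 0.0221, and 0.0951 and 0.139 without replicate 1 or 2) and by 0.56 from ITF-2357 (0.01 to 1.11, adjusted p = 0.168). Hdac1, in contrast, rose with pyroxamide (0.73 in αTC1 and 0.33 in βTC3) and ITF-2357 (0.76 and 0.70) as well, and CI-994 differed from the others by between 0 and 0.16 in 3 of the 4 pairs, with intervals inside -0.2 and 0.44, and by 0.37 ± 0.10 from pyroxamide in βTC3 (adjusted p = 0.00286, and 0.504 without the batch term).

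The largest differences between compounds were in metabolic, secreted and islet genes. Hsd11b1, which regenerates active glucocorticoid, read 9.08 and 8.78 against 7.02, 7.78 and 8.41 with CI-994 in αTC1 (a rise of 1.27 ± 0.22), and changed by -1.98 with pyroxamide and -2.61 with ITF-2357, so that CI-994 stood 3.25 ± 0.28 and 3.88 ± 0.28 above them. Adh4, an alcohol dehydrogenase that oxidises retinol, did the reverse: it differed by 0.27 with CI-994 (adjusted p = 0.625) and rose by 3.26 and 4.05 with the other two. In βTC3 the matricellular gene Ccn3 read 9.01, 5.89 and 8.16 against 3.06, 4.09 and 5.1 with CI-994 and changed by -0.27 and -0.17 with the others (differences of 3.89 ± 0.37 and 3.80 ± 0.39). Rsad2 was 1.64 ± 0.25 above pyroxamide (1.14 to 2.15) and 1.49 ± 0.27 above ITF-2357 in βTC3, while in αTC1 it differed by -0.69 and -0.71 with intervals from -1.81 to 0.43 and -1.82 to 0.41. The beta cell gene G6pc2 fell by 4.26 with ITF-2357 in βTC3 and stood 3.58 ± 0.25 higher with CI-994 (3.08 to 4.09, adjusted p = 1.77e-18), and Pdx1 fell by 2.67 and stood 1.92 ± 0.19 higher (1.55 to 2.3). Against pyroxamide G6pc2 and Pdx1 differed in βTC3 by 0.06 and -0.15, with intervals from -0.42 to 0.54 and -0.5 to 0.2. Gcg was higher with CI-994 than with either hydroxamic acid in both lines, by 0.64 ± 0.16 and 0.84 ± 0.16 in αTC1 and 1.79 ± 0.26 and 1.69 ± 0.28 in βTC3 (adjusted p at most 0.00228). Without the batch term 3 of these 4 Gcg differences missed the threshold: 0.45 from pyroxamide in αTC1 (adjusted p = 0.103), 1.43 from pyroxamide in βTC3 (adjusted p = 0.419) and 2.67 from ITF-2357 in βTC3 (adjusted p = 0.0775).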

How the data were processed

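Expression was measured on Affymetrix HT mouse arrays, on biotin-labelled cRNA from RNA purified with Qiagen RNeasy, per the labels' protocols. The authors deposited intensities on a linear scale, 3.962 to 13635, which the submitters' processing notes name as RMA values; the version is not given in the sources used here. RMA quantile-normalizes arrays, which holds back shifts shared by most genes. The log2 of each deposited intensity was analysed. Of 22716 probe sets, 18003 name 1 gene, 287 several and 4426 none in the platform annotation. Each gene was read from its probe set of highest mean, giving 11807 genes. Of 792 pairs of a named gene with several probe sets and a comparison, 6 had probe sets of opposite sign, each beyond 0.3 on the log2 scale, among them Bub1 in αTC1 at 24 h (-0.43 and 0.44).

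For each line and time 1 linear model was fitted over all arrays with compound and batch as terms (limma 3.58.1, R 4.3.3), and models over both times or both lines tested differences. The Benjamini-Hochberg adjustment ran over genes, and for the pairs of compounds over genes and both compounds. The procedure was tested on simulated data. Named genes were the 10 largest rises and falls without overlap at 6 and 24 h, all genes called at 1 h, up to 4 called members per direction of each list, the 6 largest differences between lines, times or compounds, and preset genes. The genes and lists were chosen with earlier results of these data known. Alternatives were quantile normalization, centring, no filter against one on dim genes, the mean of probe sets, no batch term, the plate as a random block, fewer arrays, a replicate block and leaving out each CI-994 replicate. Some members of the gene lists are not analysed here.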

Additional observations from a re-analysis of the deposited data

Results flagged for a closer look

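Outlying arrays were looked for in groups of 4 to 10, which here means the 10 DMSO arrays of βTC3 at 6 h. The highest of these stood apart from the other 9 for Tdo2 (3.97) and Hspb1 (6.79), and chance gives about 1 such flag in 20 groups. Every CI-994 array lay above those values for Tdo2.

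Differences in the CI-994 effect between the lines passed the test (limma interaction term, Benjamini-Hochberg). At 6 h the effect in αTC1 minus that in βTC3 was 2.89 for Selenop, -2.46 for Cd44, -2.12 for Tdo2 and 0.83 for Gadd45g. At 24 h αTC1 exceeded βTC3 for the detoxifying enzymes Gsta4 (3.65) and Adh1 (3.33), the antigen presentation gene H2-D1 (2.47), the transcription regulators Hexim1 (1.47) and Fos (1.96), Selenop (1.75), the glycolytic gene Aldoa (1.12), and the cell cycle genes Ccnb2 (1.01), Cdkn1c (0.9) and Cenpa (0.89). βTC3 exceeded αTC1 for Tesc (-4.7), Lpl (-3.95), Calb1 (-3.63), Hspb1 (-3.53), Htra1 (-3.45), Kcnk2 (-3.33), Hk2 (-2.18), Krt18 (-2.13), G6pc2 (-1.85), Kat2b (-1.36), Gstk1 (-1.34), Mbd3 (-0.97), Irx1 (-0.91) and Gcg (-0.87). For Kcnk2, G6pc2, Kat2b, Mbd3 and Irx1 the negative sign reflects a deeper fall in αTC1.

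Aldoa, aldolase A, fell by 1.50 ± 0.12 in βTC3 at 24 h (9.71, 9.4 and 9.19 against 10.37, 10.85 and 11.22), and Hk2, hexokinase 2, rose there by 1.37 ± 0.20 (4.7, 5.36 and 4.49 against 3.06, 3.34 and 3.74). Some calls between the lines were lost without the CI-994 arrays of 1 replicate number. Without replicate 1 the difference at 24 h was 0.42 for Cenpa and -0.86 for Mbd3, and that at 6 h was 0.73 for Gadd45g. Without replicate 2 it was 0.54 for Cdkn1c, -0.48 for Gcg, -0.59 for Irx1 and 1.06 for Selenop, and without replicate 3 it was 0.86 for Cdkn1c. Without the batch term the calls at 24 h were lost for Ccnb2 (0.84), Cdkn1c (0.98), Cenpa (0.8) and Gcg (-0.81).

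The effect at 24 h minus that at 6 h in αTC1 was 4.01 for Hba-a1, 3.97 for Gsta4, -3.17 for G6pc2, -3.1 for Cryba2, -2.64 for Kat2b, 1.53 for Sin3a and -1.14 for Cdkn2b. In βTC3 it was 3.69 for Ccnd2, 3.54 for Calb1, 3.46 for Selenop, -2.02 for Cenpa, -1.77 for Nkx2-2 and -1.32 for Cdc20. Cdkn2b thus was higher at 6 h than at 24 h relative to DMSO in αTC1.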

How the results depend on the processing

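For 14 counts of called genes, 129 of 147 alternatives stayed within 1.5 times the value reported, and of 2752 alternatives for 266 results on named genes 2684 kept their direction and call, 68 lost the call, 0 gained one and 0 turned direction. Of the lost calls 18 were without the batch term and 36 without a CI-994 replicate. Apart from preset genes, named genes were picked among called genes, mostly for large changes. The share that kept its call was therefore largely set by that choice and does not extend to other genes. At 1 h 1 gene was called in αTC1 without the batch term and 1 with the plate as a random block, and in βTC3 1 without the batch term, 6 with the plate as a random block and 1 with only the arrays compared; leaving out each replicate gave 1 to 2. Leaving out replicates gave 2390 to 2599 genes in αTC1 at 24 h, 1543 to 2342 for the time difference in αTC1, 417 to 582 for the line difference at 6 h (516 without the batch term) and 1077 to 1769 at 24 h. It gave 1090 to 1163 genes for CI-994 minus pyroxamide and 1529 to 1591 for CI-994 minus ITF-2357 in αTC1. In these alternatives fewer CI-994 arrays entered the fit; the cause of the others was not tested. The lone array left in αTC1 at 24 h is assumed to vary like the other groups. The number of arrays and the signal over background limit what can be detected for dim genes.

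Replicate numbers are shared by CI-994, pyroxamide and ITF-2357 in the labels, while DMSO arrays carry none. The deviations of 10 same-numbered pairs at 24 h correlated between -0.06 and 0.15, 2 of them over 0.1, and 7 correlated best with their own number. With 2 CI-994 arrays in αTC1 the deviations mirror each other, so the 10 pairs are not separate checks. The correlations are small but do not show that same-numbered arrays are unrelated. In the main fit the numbers were not treated as pairs. With the replicate block 1777 and 1381 genes differed from pyroxamide in αTC1 and βTC3 and 2360 and 2138 from ITF-2357, and of the named genes 1 call was lost (Cenpa against pyroxamide in βTC3, -0.57, adjusted p = 0.0622). Fits with only the arrays compared and with only batches 4 to 6 could not be fitted for the pairs of compounds, whose arrays share no batch.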
